A study of Mus musculus with 16 samples.

Results

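The RNA of activated mouse CD4+ T cells that lack the histone methyltransferase Ezh2 was set against that of cells that keep it, across all genes. The comparison rests on 6 of the 16 libraries in the series, chosen by their titles as the RNA libraries of Th0 culture. Ezh2KO.165, Ezh2KO.174 and Ezh2KO.175, which are 3 biological replicates, came from mice with a floxed Ezh2 gene and a Cre recombinase driven by Cd4 (CD4Cre), a genotype labelled Ezh2-/-. The 3 control libraries, Ezh2fl/fl 173, 176 and 177, came from mice with the same floxed gene and no Cre, labelled wild type. Cd4-driven Cre is active from the thymus on, so the gene is lost before the cells are cultured, and any effect of Cre itself cannot be told apart from that of the deletion. Naive CD4+ T cells were sorted by flow cytometry in both groups. They were stimulated with plate-bound anti-CD3 at 5 ug/ml and soluble anti-CD28 at 1 ug/ml, with 50 U of recombinant human IL-2. Both groups were harvested on day 4. Age and sex of the mice, and which exons are floxed, are not given in the sources used here.

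Ezh2 is the catalytic subunit of Polycomb repressive complex 2 (PRC2), which trimethylates histone H3 at lysine 27 (H3K27me3) and holds the genes that carry the mark at low transcription. Polycomb repressive complex 1 (PRC1) reads the mark and ubiquitinates histone H2A. In CD4+ T cells, Polycomb marks cover cytokine and transcription factor genes of helper lineages that a given cell has not adopted, and the cell cycle inhibitor locus Cdkn2a is a classical target. Th0 denotes activation without cytokines that direct a helper lineage.

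The promoters of 4 genes on which the results turn show how different the changed genes are in sequence. They run from 250 bases before to 50 bases after the annotated start, come from RefSeq on GRCm38.p6 (mm10), and are written 5′ to 3′ on the gene's strand with each CG pair in capitals, since CG-dense promoters are the usual sites of Polycomb binding. Cdkn2a (chr4:89294570-89294869, minus strand), a cell cycle inhibitor gene, holds 45 such pairs and was among the largest rises. Eomes (chr9:118477939-118478238, plus strand), a transcription factor of effector and memory cells, holds 10 and was among the largest gains in reads. Gzma (chr13:113100932-113101231, minus strand), a granule protease gene, holds 5 and had the largest rise among the genes named for their size. Ctla4 (chr1:60908775-60909074, plus strand), an inhibitory receptor gene, holds 8 and had the largest fall among the same genes.
Cdkn2a: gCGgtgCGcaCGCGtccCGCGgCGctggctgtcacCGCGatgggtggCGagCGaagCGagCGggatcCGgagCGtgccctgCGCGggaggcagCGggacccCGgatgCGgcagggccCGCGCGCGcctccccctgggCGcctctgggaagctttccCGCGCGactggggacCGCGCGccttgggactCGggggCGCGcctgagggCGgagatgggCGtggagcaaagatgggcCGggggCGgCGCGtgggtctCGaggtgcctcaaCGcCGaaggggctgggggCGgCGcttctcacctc
Eomes: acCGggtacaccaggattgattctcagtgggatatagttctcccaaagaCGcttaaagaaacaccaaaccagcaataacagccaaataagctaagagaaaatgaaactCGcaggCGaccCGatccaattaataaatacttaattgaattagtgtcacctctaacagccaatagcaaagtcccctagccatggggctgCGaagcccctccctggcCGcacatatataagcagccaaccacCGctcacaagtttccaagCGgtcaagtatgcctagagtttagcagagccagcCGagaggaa
Gzma: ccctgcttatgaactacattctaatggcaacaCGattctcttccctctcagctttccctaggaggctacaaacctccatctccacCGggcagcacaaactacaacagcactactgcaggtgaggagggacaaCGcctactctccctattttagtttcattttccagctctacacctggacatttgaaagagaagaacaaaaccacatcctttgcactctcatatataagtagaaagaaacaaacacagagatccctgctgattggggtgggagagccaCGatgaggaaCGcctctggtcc
Ctla4: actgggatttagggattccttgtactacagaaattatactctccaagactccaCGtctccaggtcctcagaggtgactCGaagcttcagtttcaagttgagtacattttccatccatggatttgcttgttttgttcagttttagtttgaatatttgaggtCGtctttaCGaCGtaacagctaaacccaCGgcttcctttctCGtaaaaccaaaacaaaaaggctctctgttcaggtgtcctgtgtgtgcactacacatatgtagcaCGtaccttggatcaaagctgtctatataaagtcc

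Depth was even: Ezh2KO.165, Ezh2KO.174 and Ezh2KO.175 held 25889519, 26922332 and 28443427 counted reads, and the Ezh2fl/fl libraries 173, 176 and 177 held 24589438, 26973319 and 26184692. Values per library are read counts scaled to 1000000 reads per library (CPM) and are given below in this library order. Genotype was the main axis, with 84.9% of the variance on the first principal component, and the second (6.57%) parted Ezh2KO.165 from the other Ezh2KO libraries. Ezh2KO.165 stood apart in other ways too. In a chi-square test of counts over genes, the statistic divided by its degrees of freedom was 16.6 and 17.3 for Ezh2KO.165 with each of the others. It was 3.85 for Ezh2KO.174 with Ezh2KO.175 and 8.76 to 12.01 for pairs of control libraries. It came from a female by its RNA: Xist, the transcript of the inactive X, had 1052, 0.483 and 0.387 CPM in Ezh2KO libraries, against 0.854, 0.704 and 0.458 CPM in Ezh2fl/fl libraries. The Y-linked Ddx3y had 0.386, 101 and 95.8 CPM in Ezh2KO libraries, against 87.4, 108 and 127 CPM in Ezh2fl/fl libraries. The 2 other Ezh2KO libraries and all 3 controls were thus male. The genes furthest above the other Ezh2KO libraries in Ezh2KO.165 were Il10, Il24, Epas1, Cyp11a1 and Mzb1, and those furthest below were Rtp4, Rn45s, Klf2, Ly6c1 and Amica1.

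The label of CD4+ T cells was checked against markers. Cd4 had 246, 272 and 281 CPM in Ezh2KO libraries, against 509, 462 and 469 CPM in Ezh2fl/fl libraries. The CD8 coreceptor genes were low, with Cd8b1 at 7.07, 7.65 and 6.12 CPM in Ezh2KO libraries, against 7.4, 8.12 and 6.07 CPM in Ezh2fl/fl libraries. Markers of B cells and of NK and gamma-delta T cells were higher in Ezh2KO. The counts of called markers in this paragraph stand beside 26.5% called higher and 25.6% called lower over all tested genes. The 12 B cell markers summed to 362, 146 and 159 CPM in Ezh2KO and 47.8, 45.6 and 75.4 CPM in Ezh2fl/fl, with 10 of the 12 called higher, and Ezh2KO.165 was the highest library. The 7 MHC class II genes summed to 620.4, 305 and 318 CPM in Ezh2KO and 114, 118 and 162 CPM in Ezh2fl/fl. All 7 were called higher, but only 2 without Ezh2fl/fl 173 and 1 without Ezh2fl/fl 176, and the B cell count fell to 5 and 6 without these libraries. Neither CD8 marker was called. Of 14 myeloid markers 4 were tested and 2 called higher, of 7 dendritic cell markers 2 were tested and 1 called higher, and the 1 tested erythroid marker, Gata1, was called lower. The 14 markers found for gamma-delta T, NK and NKT cells summed to 40.6, 51.0 and 43.2 CPM in Ezh2KO and 5.33, 5.23 and 4.89 CPM in Ezh2fl/fl, with all 7 tested called higher. Cd244 among these 7, and Igj among the B cell markers, had enough reads to be tested only through their level in Ezh2KO. In bulk RNA, fewer or more cells of a type and less or more RNA per cell cannot be told apart, and the part of such cells in the results below was not tested.

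Ezh2 transcripts were lower in every Ezh2KO library. Ezh2 (chromosome 6, 47530274 to 47595341) had 169, 154 and 148 CPM in Ezh2KO libraries, against 307, 295 and 312 CPM in Ezh2fl/fl libraries. The groups did not overlap, and the difference was close to 2-fold (log2 change -0.98, SE 0.05, edgeR adjusted p = 7.67e-08). Counts cover the whole gene, so a transcript that lacks only the floxed exons still adds to them. Ezh1, the other H3K27 methyltransferase, had 32.6, 31.4 and 33.8 CPM in Ezh2KO libraries, against 34.2, 29.2 and 31.5 CPM in Ezh2fl/fl libraries, overlapping ranges (log2 change 0.02, edgeR adjusted p = 0.86).

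Most tested genes passed the test, and the large changes were mainly rises. The files hold 23420 genes, of which 12284 had enough reads to test. With edgeR's quasi-likelihood test on these 6 libraries, 6397 genes (52.1%) were called at an adjusted p of 0.05, 3258 higher (26.5%) and 3139 lower (25.6%) in Ezh2KO. The median log2 change was 0.64 among genes called higher and -0.31 among those called lower. A second test, of whether the change exceeds 2-fold, called 822 genes (6.69%), 689 higher (5.61%) and 133 lower (1.08%). The imbalance grew with size: 540 called genes were at least 4-fold higher and 63 at least 4-fold lower, and 58 against 2 were past 32-fold. The CPM of the groups did not overlap for 60.4% of tested genes, 33.5% higher and 26.9% lower in Ezh2KO.

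**Figure D1:**
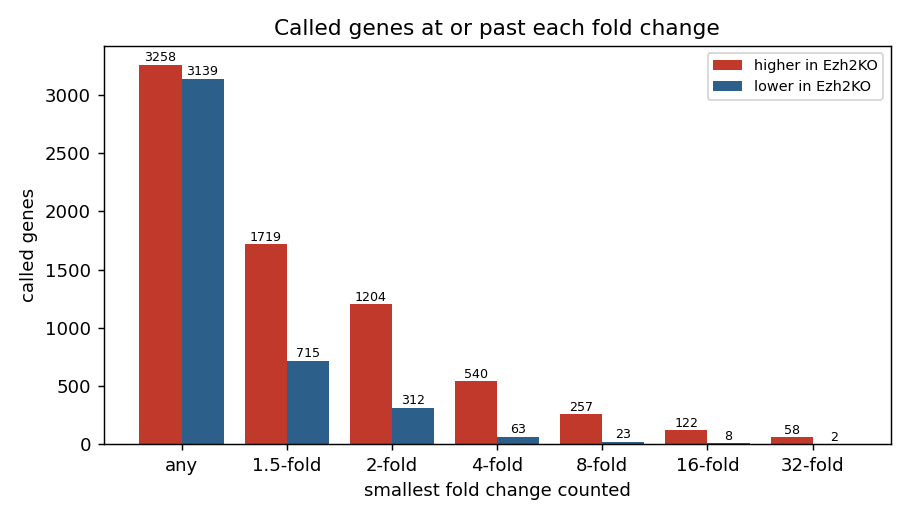
Number of genes called by edgeR in Th0 cells (vertical axis) whose fitted change was at least the fold on the horizontal axis, with genes higher in Ezh2KO left and genes lower in Ezh2KO right. The 2 directions are nearly equal at any size, 3258 and 3139 genes, and 540 against 63 at 4-fold.

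These counts changed with the libraries in the fit. With all 12 RNA libraries of the series in 1 fit, 1123 genes were called higher and 413 lower, and 302 and 34 were beyond 2-fold. The iTreg libraries then enter the count filter, the scaling and the estimate of spread together, and which of these lowered the counts was not tested. Ezh2KO.165 and Ezh2fl/fl 177 each have an iTreg library under the same number, and that fit treats all 12 libraries as independent. Of the 255 called genes named by rule, 133 were not called in that fit, Ezh2 among them (edgeR adjusted p = 0.062). Of the genes given with values below, it did not call Gadd45g, Gzmb, Gzmc, Lamp1, Tbx21, Runx3, Tnfrsf9, Pdcd1, Ccr7, Il7r, Bach2, Tcf7, Lef1, Klf2, Cd3g, Thy1, Stat5b, Jak1, Id3 and Bhlhe40. Nor did it call Cbx7, Jarid2, Top2a, Mcm2, Bcl2l1, Bcl2l11, Sc4mol, Nsdhl, Scd2, Tfrc, Asns, Atf4, Mthfd2, Chac1, Aldoa, Rpl5, Stat6, Batf, Cd40lg, Tcf3, Tcf12 and Gata1. Of Cdkn1b and Cdkn2d it called only 1. Leaving out each Th0 library in turn gave 2902 to 3227 genes higher and 2619 to 3098 lower. Of the 6397 called genes, 4792 (74.9%) were called in all 6 of these fits, and of the 822 beyond 2-fold, 595 (72.4%).

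Most of the genes that rose beyond 2-fold were weakly transcribed in control cells. With tested genes cut into 4 equal bins by mean CPM, 459 in the lowest bin were beyond 2-fold higher and 49 lower, and 32 and 18 in the highest. The filter on low counts (0.377 CPM in at least 3 libraries) was reached in all 3 Ezh2KO and in no Ezh2fl/fl library by 331 genes, which could pass only by being high in Ezh2KO, and 228 of them were beyond 2-fold higher. The reverse held for 34 genes, 19 of them beyond 2-fold lower. Among the 11370 genes that reached it in all 6 libraries, 381 were beyond 2-fold higher and 104 lower. Genes beyond 2-fold higher held 1.76%, 1.81% and 1.77% of the reads in Ezh2KO and 0.362%, 0.357% and 0.367% in Ezh2fl/fl. Genes beyond 2-fold lower held 0.412%, 0.364% and 0.410% of the reads in Ezh2KO, against 1.30%, 1.27% and 1.26% in Ezh2fl/fl.

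**Figure D2:**
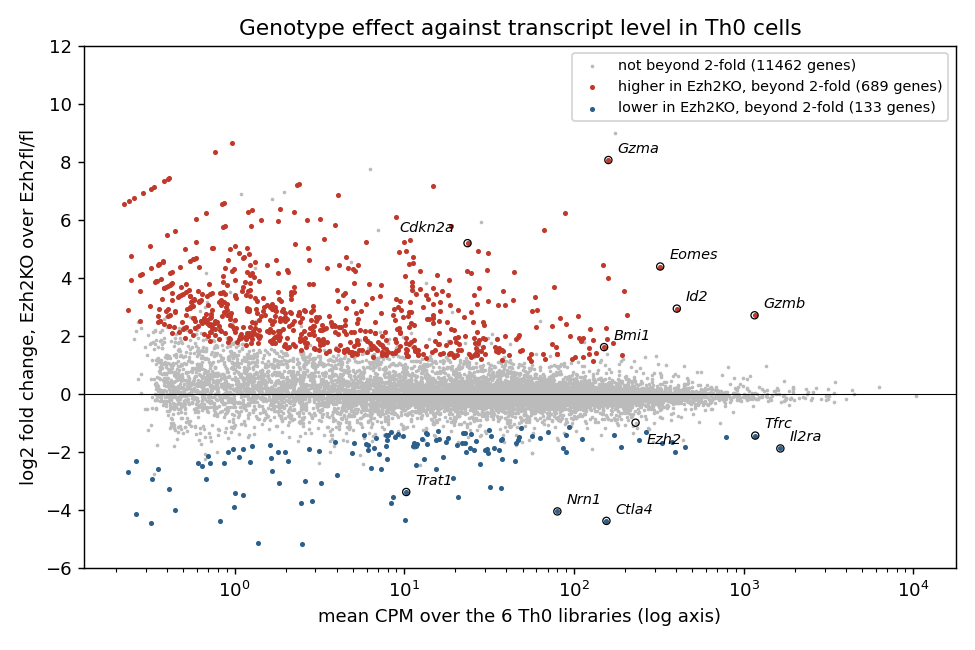
Log2 fold change of Ezh2KO over Ezh2fl/fl (vertical axis) against mean CPM over the 6 Th0 libraries (horizontal log axis), 1 point per tested gene, with points beyond 2-fold in colour. The 689 genes beyond 2-fold higher crowd at low CPM, and the 133 lower ones include the abundant transcripts Il2ra and Tfrc.

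By the level reached, 12 called genes were switched on: they averaged 10 CPM or more in Ezh2KO and had under 1 CPM in every Ezh2fl/fl library. By the same levels 0 genes were switched off, or 1 without Ezh2KO.175. Gcnt2, a glycosyltransferase gene, had 17.6, 18.9 and 16.2 CPM in Ezh2KO libraries, against 0.407, 0.222 and 0.115 CPM in Ezh2fl/fl libraries (log2 change 6.11, SE 0.22, edgeR adjusted p = 6.30e-09). Vash1, which encodes a tubulin carboxypeptidase, had 11.5, 10.5 and 12.6 CPM in Ezh2KO libraries, against 0.325, 0.222 and 0.344 CPM in Ezh2fl/fl libraries. Srxn1, an antioxidant reductase gene, had 18.5, 22.2 and 17.8 CPM in Ezh2KO libraries, against 0.407, 0.297 and 0.802 CPM in Ezh2fl/fl libraries. In these 3 genes the Ezh2KO libraries were alike and far above every control. Tspan9, a tetraspanin gene, had 102, 43.7 and 21.2 CPM in Ezh2KO libraries, against 0.895, 0.779 and 0.993 CPM in Ezh2fl/fl libraries, a spread in Ezh2KO that kept it from the call beyond 2-fold (log2 change 5.93, SE 1.00). Emilin2, Igj, Sh2d5, Ifng, Tmem37 and Chst11 were the others named by level, and Il10 and Car2 complete the 12.

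The largest rises among genes with at least 10 CPM in the higher group were those of Gzma, Il10, Igj and Ccr2. Gzma had 374, 341 and 241 CPM in Ezh2KO libraries, against 0.895, 1.37 and 1.18 CPM in Ezh2fl/fl libraries (log2 change 8.07, SE 0.30, edgeR adjusted p = 2.92e-05). The chemokine receptor gene Ccr2 had 129.7, 224 and 173 CPM in Ezh2KO libraries, against 1.55, 2.56 and 2.64 CPM in Ezh2fl/fl libraries (log2 change 6.25), and since Ccr2 has close paralogs, its count may hold shared reads. Asb2, a ubiquitin ligase adaptor gene, had 150.1, 129.8 and 114 CPM in Ezh2KO libraries, against 2.4, 1.96 and 3.28 CPM in Ezh2fl/fl libraries (log2 change 5.66). For these 3 genes every Ezh2KO library lay far above every control. Igj, the immunoglobulin J chain gene and 1 of the B cell markers, had 53, 19.8 and 15.6 CPM in Ezh2KO libraries, against 0.122, 0.334 and 0.115 CPM in Ezh2fl/fl libraries (log2 change 7.19), highest in Ezh2KO.165. Il10 was less even still and had 29.2, 3.94 and 4.46 CPM in Ezh2KO libraries, against 0.0813, 0 and 0.0764 CPM in Ezh2fl/fl libraries, with Ezh2KO.165 far above the rest, and its call was lost without any 1 control library (edgeR adjusted p = 0.11 without 173, 0.10 without 176 and 0.10 without 177).

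The rises with the smallest p were even across libraries rather than largest. P2ry14, a receptor for nucleotide sugars, had 62.7, 63.4 and 65.6 CPM in Ezh2KO libraries, against 7.24, 7.9 and 7.14 CPM in Ezh2fl/fl libraries (log2 change 3.07, SE 0.06, edgeR adjusted p = 2.97e-10). Glrx, the glutaredoxin gene, had 249, 256 and 262 CPM in Ezh2KO libraries, against 50.4, 54.4 and 51.9 CPM in Ezh2fl/fl libraries (log2 change 2.26). Gadd45g, a stress-response gene, had 101, 107 and 115 CPM in Ezh2KO libraries, against 14.2, 13 and 15 CPM in Ezh2fl/fl libraries (log2 change 2.91). The 3 libraries of each group lay within narrow ranges for all of these, and so they did for Gem, a small GTPase gene, and Frmd4b.

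Cell killing genes rose as a group. Of 19 listed, 17 were tested, 15 were called higher and 1 lower, 13 of them beyond 2-fold higher, with a median log2 change of 2.72 against 0.00 over all tested genes. Among all tested genes 26.5% were called higher. Gzmd, Gzme and Gzmk reached the count filter in Ezh2KO libraries alone, so they could be tested only by being high there. The 12-library fit called 11 higher. Gzmb, the main granzyme of these cells, had 1865, 1902 and 2296 CPM in Ezh2KO libraries, against 395, 249.7 and 259.7 CPM in Ezh2fl/fl libraries (log2 change 2.72, SE 0.24, edgeR adjusted p = 0.001). Prf1, which encodes the pore-forming perforin, had 16.4, 19.2 and 13.1 CPM in Ezh2KO libraries, against 1.38, 1.74 and 1.76 CPM in Ezh2fl/fl libraries (log2 change 3.28). Fasl, a death receptor ligand gene, had 41.2, 56.7 and 44.8 CPM in Ezh2KO libraries, against 4.8, 4 and 4.2 CPM in Ezh2fl/fl libraries (log2 change 3.43). Gzmb was already abundant in control cells, while Prf1 and Fasl were at a few CPM there. Gzmc, at 34.6, 27.5 and 25.8 CPM in Ezh2KO libraries, against 3.13, 3.52 and 2.83 CPM in Ezh2fl/fl libraries, lies among near-identical granzyme genes, and its reads may be split between them. The members Gzmf and Gzmg fell below the count filter, and Lamp1, a lysosome membrane gene, was called lower at a log2 change of -0.18.

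T helper 1 genes moved in part. Of 18 listed, 17 were tested, 9 were called higher and 1 lower, with a median log2 change of 0.25 (the 12-library fit called 5 higher). All tested genes had 26.5% higher and 25.6% lower. The 1 lower call, Tnf, was lost without Ezh2KO.174, without Ezh2fl/fl 176, without Ezh2fl/fl 177 and under 2 of the other library scalings. Eomes had 569, 726 and 555 CPM in Ezh2KO libraries, against 27.9, 24.7 and 33.5 CPM in Ezh2fl/fl libraries (log2 change 4.40, SE 0.18, edgeR adjusted p = 2.84e-05). Il12rb1, a chain of the interleukin 12 receptor, had 285, 249 and 261 CPM in Ezh2KO libraries, against 75.6, 73.1 and 80.2 CPM in Ezh2fl/fl libraries (log2 change 1.77). Hlx, a homeobox factor gene active in Th1 cells, had 2.86, 2.19 and 2.11 CPM in Ezh2KO libraries, against 0.0407, 0.0371 and 0 CPM in Ezh2fl/fl libraries, so that the controls were at or near 0. Hlx reached the count filter in Ezh2KO libraries alone, so it could be tested only by being high there. Ifng, the interferon gamma gene, had 30.4, 19.7 and 13.5 CPM in Ezh2KO libraries, against 0.285, 0.408 and 0.84 CPM in Ezh2fl/fl libraries (log2 change 5.32), with a wide spread relative to the level in both groups. The Th1 factor Tbx21 had 31.9, 38.7 and 36.4 CPM in Ezh2KO libraries, against 30.8, 26.3 and 26.6 CPM in Ezh2fl/fl libraries (log2 change 0.33), a small rise beside that of Eomes. Runx3 was called higher at 0.25 on the log2 scale.

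Genes of other helper lineages moved in both directions, where all tested genes had 26.5% called higher and 25.6% lower. Of 15 Th2 genes, 13 were tested, 7 were called higher (6 in the 12-library fit) and 1, Stat6, lower (log2 change -0.25; 0 lower in that fit). Without Ezh2fl/fl 173 the Th2 genes called higher were 3, and without Ezh2fl/fl 176 or without 177 they were 4. Without Ezh2KO.165, 9 were called higher and 3 lower. Of the 7, Il13, Il1rl1 and Gpr44 reached the count filter in Ezh2KO libraries alone, so they could be tested only by being high there. Maf, a transcription factor of Th2 and interleukin 10 producing cells, had 57.8, 39.4 and 43.3 CPM in Ezh2KO libraries, against 2.24, 2.52 and 2.75 CPM in Ezh2fl/fl libraries (log2 change 4.19). Gata3, the Th2 master factor, was not called (log2 change 0.53, edgeR adjusted p = 0.22). Of 11 Th17 genes, 6 were below the count filter, 2 were called higher (also 2 in the 12-library fit), 1, Batf, was called lower (log2 change -0.17) and 2 were not called. The call of Batf was lost in the 12-library fit, with library totals or upper-quartile scaling, and without Ezh2KO.174, Ezh2KO.175 or Ezh2fl/fl 176, and without Ezh2KO.165 there were 2 lower calls. Ahr, the aryl hydrocarbon receptor gene of Th17 cells, had 23.9, 20.2 and 18.1 CPM in Ezh2KO libraries, against 1.34, 1.19 and 1.6 CPM in Ezh2fl/fl libraries (log2 change 3.88). Rora, a Th17 nuclear receptor gene, had 3.01, 2.53 and 1.86 CPM in Ezh2KO libraries, against 0.325, 0.222 and 0.229 CPM in Ezh2fl/fl libraries (log2 change 3.20). For Maf and Ahr the groups lay far apart in every library. Rora reached the count filter in Ezh2KO libraries alone, so it could be tested only by being high there. Of 9 tested follicular helper genes, 3 were called higher and 4 lower (1 and 1 in the 12-library fit), with a median log2 change of -0.47, and without Ezh2fl/fl 177 1 was called higher. Cd40lg, the CD40 ligand gene, was among the 4 (log2 change -1.85). Tox2, among the 3 called higher, reached the count filter in Ezh2KO libraries alone, so it could be tested only by being high there.

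The regulatory and inhibitory receptor genes divided, where all tested genes had 26.5% called higher and 25.6% lower. Of 20 Treg genes, 7 were called higher and 10 lower (3 and 7 in the 12-library fit), and of 10 tested inhibitory receptors 5 were higher and 3 lower (4 and 3). Il10 and Il1rl1 of the first list and Cd244 of the second reached the count filter in Ezh2KO libraries alone. Those could be tested only by being high there. Ctla4, which competes with Cd28 for its ligands, had 13.7, 13.4 and 16.8 CPM in Ezh2KO libraries, against 343, 276 and 271 CPM in Ezh2fl/fl libraries (log2 change -4.37, SE 0.15, edgeR adjusted p = 3.57e-06). Foxp3, the Treg master factor, had 2.43, 3.16 and 6.15 CPM in Ezh2KO libraries, against 15.9, 23.9 and 23 CPM in Ezh2fl/fl libraries (log2 change -2.44). Cd200, which encodes an inhibitory ligand, had 4.13, 4.01 and 5.2 CPM in Ezh2KO libraries, against 29.6, 26.1 and 23.1 CPM in Ezh2fl/fl libraries (log2 change -2.59). These 3 were lower in every Ezh2KO library. Tnfrsf9 (4-1BB), a costimulatory receptor gene, went the other way, with 93.8, 103 and 101 CPM in Ezh2KO libraries, against 15.2, 13.9 and 11.4 CPM in Ezh2fl/fl libraries (log2 change 2.85). Entpd1 (CD39), an ectonucleotidase gene, had 48.1, 45.5 and 38.4 CPM in Ezh2KO libraries, against 8.42, 10.6 and 10.2 CPM in Ezh2fl/fl libraries (log2 change 2.14). Havcr2 (Tim-3), an inhibitory receptor gene, had 13.4, 8.32 and 7 CPM in Ezh2KO libraries, against 0.407, 0.556 and 0.42 CPM in Ezh2fl/fl libraries (log2 change 4.33). Cd244, an NK cell receptor gene, was near 0 in controls, with 4.36, 5.68 and 3.87 CPM in Ezh2KO libraries, against 0.0407, 0 and 0.0382 CPM in Ezh2fl/fl libraries. Pdcd1 was called higher at a log2 change of 0.40, a call lost without Ezh2KO.165 (edgeR adjusted p = 0.055), without Ezh2KO.175 (0.053) and without Ezh2fl/fl 177 (0.093), and Lag3 was not called (-0.02).

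Most tested chemokines and 8 of 13 tested chemokine receptors rose. Of 12 chemokines listed, 9 were tested, 8 were called higher (5 in the 12-library fit) and 1, Ccl22, lower. Ccl1, Ccl9, Xcl1 and Cxcl16, and the receptor gene Cx3cr1, reached the count filter in Ezh2KO libraries alone. They could thus be tested only by being high there. Among all tested genes 26.5% were called higher and 25.6% lower. Of 18 receptors, 13 were tested, 8 were called higher (7 in the 12-library fit) and 1, Ccr7, lower, or 2 without Ezh2KO.165, and 4 were not called. Ccl22 was not called lower without Ezh2fl/fl 173 or 177 or without Ezh2KO.174 or Ezh2KO.175. Cxcr6, a tissue-homing receptor gene, had 88.8, 86.5 and 77.9 CPM in Ezh2KO libraries, against 2.77, 5.08 and 5.61 CPM in Ezh2fl/fl libraries (log2 change 4.19). Ccr7, the lymph node homing receptor gene, had 83.7, 99.7 and 103 CPM in Ezh2KO libraries, against 274, 235 and 234 CPM in Ezh2fl/fl libraries (log2 change -1.40). Cxcr3, a Th1 receptor, was not called (log2 change 0.04). Ccl3 and Ccl4, chemokines of effector cells, had log2 changes of 4.23 and 3.82. Xcl1, which encodes lymphotactin, had 3.86, 7.24 and 4.75 CPM in Ezh2KO libraries, against 0, 0.111 and 0.115 CPM in Ezh2fl/fl libraries.

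Adhesion genes and calcium-binding genes of effector cells rose in part, where all tested genes had 26.5% called higher and 25.6% lower. Of 18 tested integrin and homing genes, 10 were called higher and 4 lower (4 and 2 in the 12-library fit). Of 16 tested S100, annexin and galectin genes 11 were called higher and 3 lower (5 and 1 in that fit). Itga1, among the 10 integrin and homing genes called higher, reached the count filter in Ezh2KO libraries alone. It could be tested only by being high there. Itgal, the LFA-1 alpha chain gene, had 1043, 1077 and 1097 CPM in Ezh2KO libraries, against 540.3, 523 and 584 CPM in Ezh2fl/fl libraries (log2 change 0.94). Itga6, the laminin receptor chain gene, had 51.9, 57.4 and 63.1 CPM in Ezh2KO libraries, against 157, 173.7 and 167 CPM in Ezh2fl/fl libraries (log2 change -1.56). S100a4, a calcium-binding protein gene of motile and memory cells, had 23.9, 30 and 34.6 CPM in Ezh2KO libraries, against 1.34, 1.85 and 1.87 CPM in Ezh2fl/fl libraries (log2 change 4.09). S100a6 had 166, 132 and 155 CPM in Ezh2KO libraries, against 25.4, 29.6 and 28.3 CPM in Ezh2fl/fl libraries (log2 change 2.41). Itgal was already abundant in controls, whereas S100a4 was low there.

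Genes of naive and central memory T cells fell. Of 16 listed and tested, 13 were called lower, against 25.6% of all tested genes. The median log2 change was -0.93, and the 12-library fit called 2 lower. Without Ezh2fl/fl 173 or without 176, 11 were called lower. Il7r, the interleukin 7 receptor chain gene, had 9.46, 5.83 and 6.79 CPM in Ezh2KO libraries, against 87.3, 58.9 and 56.4 CPM in Ezh2fl/fl libraries (log2 change -3.23, SE 0.29, edgeR adjusted p = 7.94e-04). Bach2, a repressor of effector genes, had 33.2, 42 and 37.5 CPM in Ezh2KO libraries, against 75.9, 70.1 and 69 CPM in Ezh2fl/fl libraries (log2 change -0.96). Dapl1 had 0.541, 0.854 and 1.48 CPM in Ezh2KO libraries, against 20.9, 14.9 and 21.9 CPM in Ezh2fl/fl libraries (log2 change -4.33). Tcf7 and Lef1, transcription factors of early and memory T cells, had log2 changes of -0.51 and -0.86. The call of Tcf7 lay just under the threshold (edgeR adjusted p = 0.0498). Klf2, a quiescence factor gene, had 11.2, 24.9 and 27 CPM in Ezh2KO libraries, against 77.6, 70.7 and 62.3 CPM in Ezh2fl/fl libraries, with Ezh2KO.165 lowest, and its call was lost without Ezh2fl/fl 173 (edgeR adjusted p = 0.056) or 176 (0.050) and without Ezh2KO.174 (0.051).

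Core T cell genes were lower as well. Of 15, 11 were called lower and 1, Thy1, higher (the 12-library fit called 5 lower), where all tested genes had 25.6% lower and 26.5% higher. Cd2, an adhesion receptor gene, had 144, 164 and 179.8 CPM in Ezh2KO libraries, against 668, 627 and 599 CPM in Ezh2fl/fl libraries (log2 change -1.99, SE 0.09, edgeR adjusted p = 1.80e-06). Cd5, a brake on antigen receptor signals, had 110.1, 122 and 134 CPM in Ezh2KO libraries, against 372, 349 and 365 CPM in Ezh2fl/fl libraries (log2 change -1.59). Trat1, an adaptor gene of the receptor complex, had 2.59, 1.49 and 1.48 CPM in Ezh2KO libraries, against 18.7, 18.7 and 18.8 CPM in Ezh2fl/fl libraries (log2 change -3.37). Cd3g, a chain of the receptor complex itself, had 150.1, 167 and 172 CPM in Ezh2KO libraries, against 259, 258 and 244 CPM in Ezh2fl/fl libraries (log2 change -0.67). The falls were thus deep for Trat1 and Cd2 and shallower for Cd4 and Cd3g. Thy1 had 2017, 2014 and 2015 CPM in Ezh2KO libraries, against 1369, 1518 and 1440.1 CPM in Ezh2fl/fl libraries (log2 change 0.45).

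**Figure D3:**
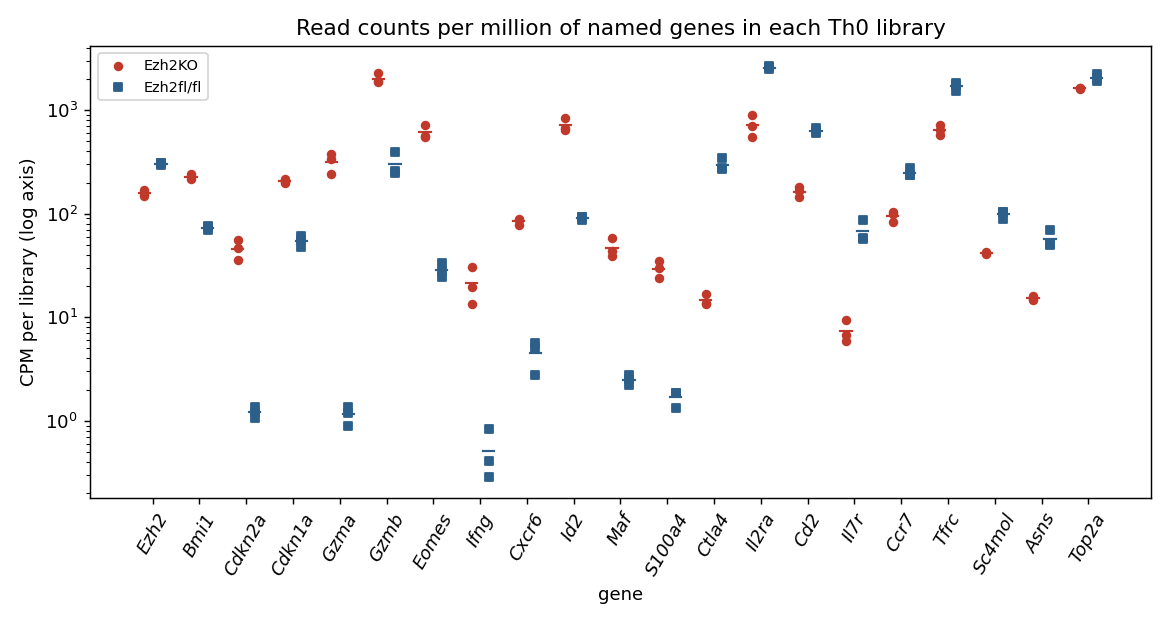
CPM per library on a log axis for 21 genes, with Ezh2KO libraries as circles left and Ezh2fl/fl libraries as squares right of each tick, and a bar at each mean. Groups do not overlap for any gene drawn, nor for 60.4% of all tested genes, and the rule that named the largest changes required no overlap. Il2ra stands at 551 to 904 CPM in Ezh2KO, against 2485 to 2641 CPM in Ezh2fl/fl.

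The IL-2 receptor pathway, which the added IL-2 engages, fell in part. Of 11 genes, 7 were called lower and 3 higher, and the 12-library fit called 2 lower. All tested genes had 26.5% higher and 25.6% lower, so the count of higher genes lay near its share. Il2ra, the high-affinity receptor chain gene, had 904, 551 and 700.0 CPM in Ezh2KO libraries, against 2485, 2641 and 2604 CPM in Ezh2fl/fl libraries (log2 change -1.87, SE 0.20, edgeR adjusted p = 0.002), the largest loss in mean CPM among called genes. Socs2, a feedback inhibitor gene induced by STAT5, had 192, 159.7 and 208 CPM in Ezh2KO libraries, against 535, 568 and 596 CPM in Ezh2fl/fl libraries (log2 change -1.63). Stat5b had 126, 126 and 125 CPM in Ezh2KO libraries, against 166, 155 and 167 CPM in Ezh2fl/fl libraries (log2 change -0.40). Jak1, a kinase gene of cytokine receptors, rose, with 508, 615 and 558 CPM in Ezh2KO libraries, against 393, 375 and 395 CPM in Ezh2fl/fl libraries (log2 change 0.50).

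Of 6 tested genes of Id and E proteins, a set of helix-loop-helix factors in which the Id proteins inhibit the E proteins, 4 were called higher and 2 lower (3 and 0 in the 12-library fit). Id1, among the 4, reached the count filter in Ezh2KO libraries alone, so it could be tested only by being high there. Id2, the Id gene of effector cells, had 832, 679 and 642 CPM in Ezh2KO libraries, against 86, 93.7 and 93.8 CPM in Ezh2fl/fl libraries (log2 change 2.95, SE 0.11, edgeR adjusted p = 3.11e-06). Id3, its counterpart in naive and memory cells, had 19.9, 12.2 and 16.7 CPM in Ezh2KO libraries, against 34.5, 40.1 and 37.2 CPM in Ezh2fl/fl libraries (log2 change -1.22). The E protein genes Tcf4 and Tcf12 were called higher, at log2 changes of 0.74 and 0.29, and Tcf3 lower at -0.25. Among 23 factors induced through the antigen receptor, 7 were called higher and 9 lower (5 and 4 in the 12-library fit), where all tested genes had 26.5% higher and 25.6% lower. Fosl2, an AP-1 subunit gene, had 95.2, 67.4 and 75.5 CPM in Ezh2KO libraries, against 8.54, 8.16 and 7.68 CPM in Ezh2fl/fl libraries (log2 change 3.26), and Bhlhe40, a factor of cytokine-producing cells, 143, 142 and 148 CPM in Ezh2KO libraries, against 60.5, 55.1 and 59.8 CPM in Ezh2fl/fl libraries (log2 change 1.28). Junb and Jun, other AP-1 subunits, had log2 changes of -0.68 and -0.54. No member of this list was beyond 2-fold lower, and 5 were beyond 2-fold higher.

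Of 19 PRC1 genes, 8 were called higher and 7 lower (2 and 2 in the 12-library fit), and of 11 PRC2 genes 2 higher and 4 lower, where all tested genes had 26.5% and 25.6%. The PRC2 counts lay near these shares. Bmi1, a PRC1 core subunit gene, had 239, 231 and 216 CPM in Ezh2KO libraries, against 68.9, 73.8 and 75.7 CPM in Ezh2fl/fl libraries (log2 change 1.62, SE 0.05, edgeR adjusted p = 4.95e-09). Scmh1 had 27, 26.1 and 28.1 CPM in Ezh2KO libraries, against 8.95, 7.97 and 7.83 CPM in Ezh2fl/fl libraries (log2 change 1.69). Cbx7, which encodes a reader of H3K27me3, had 36.5, 31.6 and 34.6 CPM in Ezh2KO libraries, against 55.6, 48.3 and 52.6 CPM in Ezh2fl/fl libraries (log2 change -0.64). Phc3 had 200.3, 180.3 and 211 CPM in Ezh2KO libraries, against 323, 316 and 341 CPM in Ezh2fl/fl libraries (log2 change -0.76). Of the PRC2 genes the 12-library edgeR fit called 0, with 1 lower and 1 higher at an unadjusted p under 0.05 (DESeq2 on the 6 libraries called 4 lower and 2 higher). Jarid2, an accessory subunit gene, had 78.8, 68.8 and 72.5 CPM in Ezh2KO libraries, against 38.6, 38.2 and 37.8 CPM in Ezh2fl/fl libraries (log2 change 0.91). Phf19 lost its higher call without Ezh2KO.174 or Ezh2KO.175 and without Ezh2fl/fl 173 or 177 (edgeR adjusted p = 0.057 to 0.12). The demethylase gene Kdm6a, which escapes X inactivation, had 81.5, 47.7 and 46.5 CPM in Ezh2KO libraries, against 59.7, 51.9 and 53.1 CPM in Ezh2fl/fl libraries and was high in the female library. It was not called, and without Ezh2KO.165 it was lower (log2 change -0.25, edgeR adjusted p = 0.0048).

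Cell cycle inhibitors rose in part while the cycle genes themselves moved little. The counts in this paragraph stand beside 26.5% higher and 25.6% lower over all tested genes. Of 7 inhibitor genes, 4 were called higher and 2 lower (3 and 1 in the 12-library fit). Cdkn2a had 35.8, 47.1 and 55.2 CPM in Ezh2KO libraries, against 1.06, 1.37 and 1.22 CPM in Ezh2fl/fl libraries (log2 change 5.20, SE 0.23, edgeR adjusted p = 6.69e-06). Cdkn2b, its neighbour, had 7.3, 7.95 and 7.8 CPM in Ezh2KO libraries, against 0.0407, 0.185 and 0.153 CPM in Ezh2fl/fl libraries (log2 change 5.82). Cdkn2b reached the count filter in Ezh2KO libraries alone, so it could be tested only by being high there. Cdkn1a, the p53 target that encodes p21, had 197, 203 and 218 CPM in Ezh2KO libraries, against 60.9, 55.3 and 47.8 CPM in Ezh2fl/fl libraries (log2 change 1.88). All 3 were beyond 2-fold higher, while Cdkn1b (p27) and Cdkn2d fell by 0.85 and 0.56 on the log2 scale. The 12-library fit called only 1 of these falls. Of 23 replication and mitosis genes, 10 were called lower and 4 higher, none beyond 2-fold. The 12-library edgeR fit called 0 of them and 0 at an unadjusted p under 0.05, while DESeq2 on the 6 libraries called 10 lower and 4 higher. Top2a, a topoisomerase gene of dividing cells, had 1652, 1617 and 1621 CPM in Ezh2KO libraries, against 2044, 1923 and 2233 CPM in Ezh2fl/fl libraries (log2 change -0.37), and Mcm2, a helicase subunit gene, 498, 487 and 489 CPM in Ezh2KO libraries, against 416, 421 and 425 CPM in Ezh2fl/fl libraries (log2 change 0.20). Of 17 tested p53 targets 10 were called higher (3 in the 12-library fit) and 2 lower (1 without Ezh2KO.175 or Ezh2fl/fl 176), led by Perp, an apoptosis effector gene, with 18.5, 19.4 and 19.8 CPM in Ezh2KO libraries, against 2.52, 2.97 and 2.41 CPM in Ezh2fl/fl libraries (log2 change 2.84). Of 13 BCL-2 family genes 8 were called higher and 3 lower, also by DESeq2, while the 12-library edgeR fit called 0, with 3 higher at an unadjusted p under 0.05. Both a survival gene, Bcl2l1 (log2 change 0.49), and a death gene, Bcl2l11 (0.78), were among the 8. Bok, also among the 8, reached the count filter in Ezh2KO libraries alone, so it could be tested only by being high there.

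All 20 genes of cholesterol synthesis and its regulation were lower in Ezh2KO, against 25.6% of all tested genes called lower. The median log2 change was -0.87, and all 20 were called lower in each of the 6 fits without 1 library and under each library scaling tried. DESeq2 also called all 20 lower. The 12-library edgeR fit called 0 of them, 4 at an unadjusted p under 0.05, with a median log2 change of -0.88. Sc4mol, a sterol methyl oxidase gene, had 41, 41.3 and 42.2 CPM in Ezh2KO libraries, against 105, 104 and 89.6 CPM in Ezh2fl/fl libraries (log2 change -1.29, SE 0.06, edgeR adjusted p = 6.61e-08). Nsdhl, a sterol dehydrogenase gene, had 30, 30.5 and 31 CPM in Ezh2KO libraries, against 69.1, 68.1 and 64.6 CPM in Ezh2fl/fl libraries (log2 change -1.17). In both genes the groups were far apart beside the spread within them. The desaturase gene Scd2, a lipid gene outside the list, had 429, 414 and 438 CPM in Ezh2KO libraries, against 1324, 1135 and 1005 CPM in Ezh2fl/fl libraries (log2 change -1.46), and Tfrc, the transferrin receptor gene, had 712, 582 and 639.9 CPM in Ezh2KO libraries, against 1538, 1749 and 1813 CPM in Ezh2fl/fl libraries (log2 change -1.43).

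Genes of the amino acid stress response also fell. Of 16, 13 were called lower, against 25.6% of all tested genes. The median log2 change was -0.42, and the 12-library fit called 2 lower. Asns, asparagine synthetase, had 15.9, 15 and 14.7 CPM in Ezh2KO libraries, against 70, 51.1 and 49.5 CPM in Ezh2fl/fl libraries (log2 change -1.93, SE 0.15, edgeR adjusted p = 8.60e-05). Atf4, the transcription factor that drives the response, had 255, 225 and 241 CPM in Ezh2KO libraries, against 360.1, 336 and 299.8 CPM in Ezh2fl/fl libraries (log2 change -0.49). Mthfd2, a mitochondrial folate enzyme gene, had 163, 165.2 and 170.3 CPM in Ezh2KO libraries, against 234, 242 and 221 CPM in Ezh2fl/fl libraries (log2 change -0.51). Trib3 and Chac1, targets of Atf4, had log2 changes of -1.44 and -1.11.

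Other housekeeping pathways showed small or scale-dependent changes, where all tested genes had 26.5% called higher and 25.6% lower. The respiratory chain lay below both shares. Of 21 glycolysis genes, 8 were called lower and 4 higher (0 in the 12-library edgeR fit, 1 at an unadjusted p under 0.05, and 7 lower and 4 higher by DESeq2), with Aldoa at 1045, 1049 and 1120.1 CPM in Ezh2KO libraries, against 866, 781 and 821 CPM in Ezh2fl/fl libraries (log2 change 0.35). Of 74 tested respiratory chain genes, 12 were called lower and 6 higher, and 6 lower and 10 higher with library totals alone as the scale. Leaving out Ezh2fl/fl 176 gave 5 lower and 15 higher, and Ezh2KO.174 gave 7 and 3. Of 75 ribosomal protein genes, 27 were called lower and 3 higher (0 in the 12-library edgeR fit, 4 lower at an unadjusted p under 0.05, and 27 lower and 2 higher by DESeq2), with 14 lower without Ezh2KO.174 and 43 without Ezh2fl/fl 177. Rpl5 had 1611, 1582 and 1619.8 CPM in Ezh2KO libraries, against 1871, 1866 and 1786 CPM in Ezh2fl/fl libraries (log2 change -0.23). Of 25 interferon response genes, 3 were called lower and 1 higher by edgeR and 10 lower and 1 higher by DESeq2. Leaving out 1 library gave 0 to 5 lower and 0 to 2 higher, with 0 of each without Ezh2KO.175, and each of the 4 edgeR calls was lost without at least 1 library.

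Lineage factors of other tissues stayed mostly below the count filter. Of 39 Hox genes, 37 were below it, and both tested ones, Hoxb4 and Hoxa4, were called higher. Each reached the filter in all 3 Ezh2KO libraries. Among controls, Hoxb4 reached it in Ezh2fl/fl 173 alone and Hoxa4 in none. That they were tested thus rested on their level in Ezh2KO, which nearly fixed the direction of these calls. Hoxb4 had 2.05, 2.23 and 2.18 CPM in Ezh2KO libraries, against 0.407, 0.371 and 0.344 CPM in Ezh2fl/fl libraries (log2 change 2.48). Of 59 developmental factors, 52 were below it, 2 of the 7 tested were called higher and 1 lower. All tested genes had 26.5% called higher and 25.6% lower, so the higher count lay near its share, and 7 genes are few. Lhx2, a LIM homeobox gene, had 10.1, 4.49 and 3.94 CPM in Ezh2KO libraries, against 1.18, 1.22 and 0.955 CPM in Ezh2fl/fl libraries (log2 change 2.43), highest in Ezh2KO.165, and Gata1, an erythroid factor gene, had 9.27, 11.1 and 11.1 CPM in Ezh2KO libraries, against 17.4, 19.7 and 22.7 CPM in Ezh2fl/fl libraries (log2 change -0.95).

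**Figure D4:**
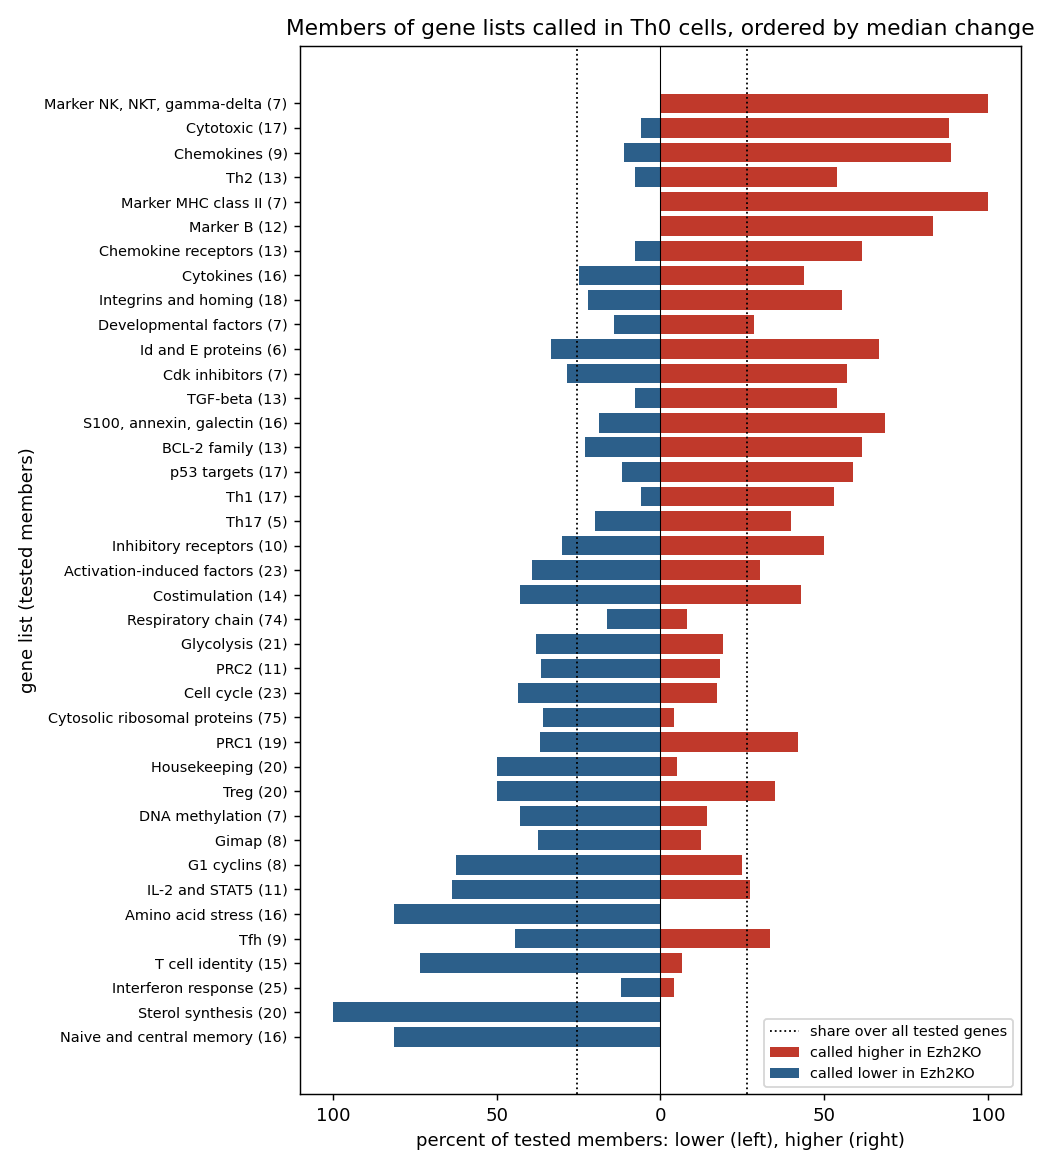
Percent of tested members called higher in Ezh2KO (right) and called lower (left) for each gene list with at least 5 tested members, ordered by median log2 change, with dotted lines at the shares over all tested genes, 26.5% and 25.6%. Sterol synthesis reaches 20 of 20 on the lower side and cytotoxic genes 15 of 17 on the higher side.

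The RNA change was set against H3K27me3, measured by ChIP-seq over gene bodies in Th0 cells with 2 libraries per genotype. The deposited counts were scaled to each library's total with no input or spike-in used, so a density, in CPM per kb, is a share of that library's reads and its level is not comparable between genotypes. Of the 12284 genes, 12067 were in the ChIP files, and the 10% with the highest control density, 1207 genes, were taken as marked. Among marked genes, 671 (55.6%) were called higher and 96 (7.95%) lower, against 2542 (23.4%) and 2999 (27.6%) of the 10860 others. Beyond 2-fold, 29.0% of marked genes were higher and 1.99% lower, against 3.03% and 0.976% of the others. Marked genes were weakly transcribed, with a median of 1.46 CPM against 35.8 CPM. Within the 4 bins of mean CPM, from low to high, 28.7%, 33.3%, 15.8% and 31.0% of marked genes were beyond 2-fold higher, against 8.71%, 3.48%, 1.13% and 0.728% of the others. These bins held 963, 177, 38 and 29 marked genes, so the shares in the upper 2 rest on few genes. The 331 genes that passed the count filter only through Ezh2KO were not set aside here, which limits the comparison at low CPM.

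Seen from the RNA side, 51.5% of genes beyond 2-fold higher and 18.5% of those beyond 2-fold lower were marked. The median density of genes beyond 2-fold higher was 1.04 and 0.937 in Ezh2KO libraries 10 and 9 and 1.38 and 1.43 in Ezh2fl/fl libraries 33 and 7. Genes beyond 2-fold lower had medians of 0.970 and 0.895 in Ezh2KO and 0.842 and 0.880 in Ezh2fl/fl. Over all tested genes the medians were 0.904 and 0.839 in Ezh2KO and 0.565 and 0.438 in Ezh2fl/fl. In Ezh2KO the classes thus lay close together, and in Ezh2fl/fl the genes beyond 2-fold higher stood above the rest. Genes beyond 2-fold lower also stood above all tested genes in Ezh2fl/fl, by less. Cdkn2a, Gzma, Eomes, Ccr2, Maf and Bmi1 were among the marked genes that rose, and Id2, Gzmb, Ifng and Cxcr6 rose without being among the marked.

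**Figure D5:**
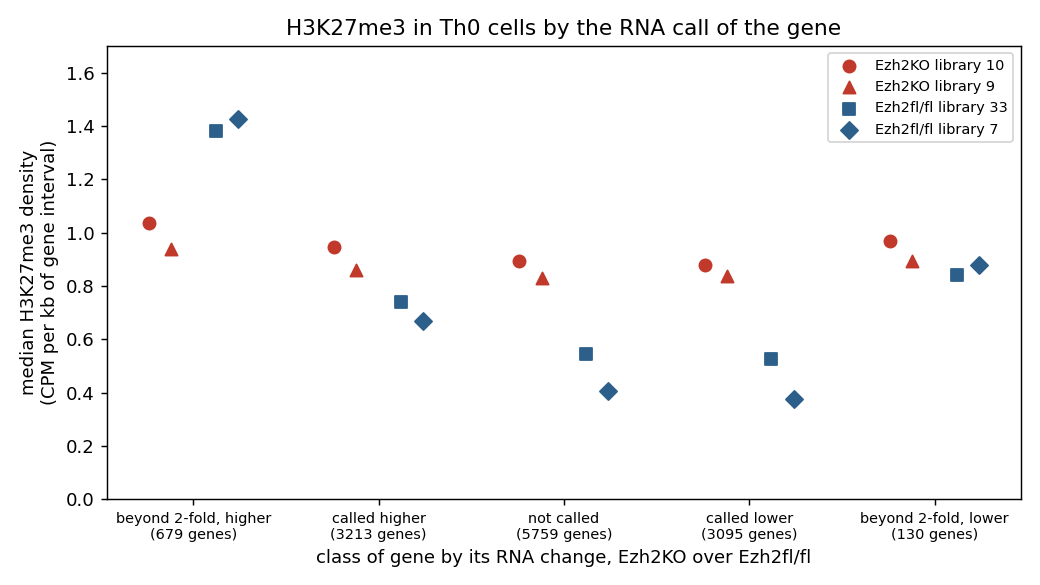
Median H3K27me3 density over gene bodies (CPM per kb, vertical axis) in each ChIP library, Ezh2KO left and Ezh2fl/fl right, for genes grouped by their RNA change (horizontal axis). In Ezh2fl/fl libraries the genes beyond 2-fold higher reach 1.38 and 1.43, and the other classes 0.377 to 0.880.

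Promoter sequence was described for the 9100 tested genes with a RefSeq promoter in the table, 496 of them beyond 2-fold higher and 99 beyond 2-fold lower. Promoters rich in CG pairs, taken as at least 50% G and C with at least 0.6 of the CG pairs that this content predicts, made up 52.4% of promoters of genes beyond 2-fold higher and 37.4% of those beyond 2-fold lower, against 69.7% of all tested genes and 34.1% of all 27025 promoters in the table. The AP-1 motif TGANTCA, searched on both strands with N for any base, was found in 10.3% of promoters of genes beyond 2-fold higher and 5.05% of those beyond 2-fold lower, against 4.81% of all tested genes and 7.93% of all promoters. Motifs named T-box, RUNX, TCF/LEF, ISRE and GATA were searched too. In that order, genes beyond 2-fold higher had 1.21%, 16.3%, 2.42%, 4.23% and 8.06%. Genes beyond 2-fold lower had 3.03%, 15.2%, 3.03%, 5.05% and 10.1%, and all tested genes 0.890%, 12.8%, 2.32%, 3.12% and 6.35%. No motif share was tested. Of the promoters printed above, Cdkn2a has the highest count of CG pairs and Gzma the lowest, so genes of both kinds rose.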

How the data were processed

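RNA was measured in 6 Th0 libraries, 3 per genotype. Per the labels' protocols, total RNA went through the TruSeq RNA v2 kit, which does not mark strand, so overlapping and antisense genes cannot be told apart. Per the submitters' processing notes, the tools were Trimmomatic 0.30, TopHat2 2.0.6, Bowtie2 2.1.0 and featureCounts 1.4.2, with build mm10. In both deposited file types the values are whole, unscaled read counts per gene. Depth was 24589438 to 28443427 reads per RNA library. Counts are of reads without molecular identifiers.

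Genes passing filterByExpr with a minimum count of 10 were tested with edgeR 4.0.16 in R 4.3.3 on the 6 libraries alone, with TMM scaling and a robust quasi-likelihood F test, two-sided. Changes beyond 2-fold were tested with glmTreat. P-values were adjusted by Benjamini-Hochberg over all 12284 genes, at 0.05. CPM are relative to library totals. A switched-on gene had a mean of at least 10 CPM in Ezh2KO and under 1 CPM in every control. Genes were named as Ezh2 and Ezh1, the 12 largest changes each way at 10 CPM or more without overlap, the 8 largest gains and losses in CPM, the 5 smallest p each way, switched genes, up to 6 members per list by p, and the 5 genes highest and lowest in Ezh2KO.165. A few other list members given only by log2 change, and Cd4, Foxp3, Tbx21, Gata3 and Lag3, were chosen after their values were seen. A few genes that the rule chose are not reported here. The 46 gene lists were described by counts, and 582 symbols were looked up, 1 of which was not found. Members, lists and tests were chosen with earlier results of these data known. The scripts were tested on simulated data. Alternatives were other scalings and filters, DESeq2 1.42.0, all 12 RNA libraries, genes off X and Y, and leaving out each library.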

Additional observations from a re-analysis of the deposited data

How the results depend on the processing

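With all 12 RNA libraries in 1 fit, 1123 genes were called higher and 413 lower, and 302 and 34 beyond 2-fold. A minimum count of 50 left 444 genes beyond 2-fold higher. Leaving out each library gave 2902 to 3227 genes higher, 2619 to 3098 lower, 539 to 728 beyond 2-fold higher and 117 to 154 lower, and 0 to 1 switched off. The other scalings, no filter and leaving out X and Y genes kept the counts of genes higher, lower and beyond 2-fold within 1.5 times, as did DESeq2 for genes higher and lower. The cause of these shifts was not tested. Median H3K27me3 density was 0.991 in Ezh2KO and 1.4005 in Ezh2fl/fl for genes beyond 2-fold higher, and 0.937 and 0.862 for those beyond 2-fold lower, and 0.769 in Ezh2fl/fl for genes called higher once overlapping intervals were left out. Among log2 changes, direction turned for Ly6c1 under library totals (0.0035) and upper-quartile scaling (0.0027). Leaving out 1 library gave ranges across 0 for Ezh1 (-0.035 to 0.071), Ly6c1 (-0.33 to 0.28), Kdm6a (-0.25 to 0.20), Irf4 (-0.16 to 0.33), Ccr6 (-0.18 to 0.70), Cd8b1 (-0.198 to 0.019), Cd8a (-1.19 to 0.61) and Xist (-0.65 to 9.58). Their lowest values came without Ezh2KO.165 for Kdm6a, Irf4, Cd8a and Xist. Apart from the 12-library fit, 229 of 255 named called genes kept direction and call throughout. No paired analysis was possible because the Th0 groups share no replicate number.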
